A study of Homo sapiens with 9 samples.

Results

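The LINC loci are long noncoding RNA genes that the human gene nomenclature names LINC followed by digits and that lie, for the most part, between protein-coding genes. They were taken as every row of the deposited table with the gene type lncRNA and such a symbol, which gave 2221 loci of the 62703 genes listed. Of these, 956 had at least 1 count in any of the 9 libraries and 1265 had none, so most LINC loci were not detected at this depth. A further 31 rows with a LINC symbol carried another gene type and were left out, and 9 symbols stood on 2 rows each, which were kept as separate loci. The loci were described by their level in untreated cells and by their distance to the nearest active protein-coding gene, which is one with an untreated mean of 10 CPM or more (CPM, counts scaled to 1e6 per library, here normalised with TMM).

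Long intergenic noncoding RNAs are transcribed by RNA polymerase II, often capped, spliced and polyadenylated, and have no long open reading frame, although a few encode small peptides. Many are kept in the nucleus, are present at far lower levels than mRNAs, are limited to few tissues and are removed by the nuclear exosome. Some begin head to head with a protein-coding gene from a shared CG-rich start region, and others lie behind the 3′ end of a coding gene on the same strand.

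The cells were HK-2, a human proximal tubule line transformed with papillomavirus 16, whose source tissue is given as renal cortex. All 9 libraries came from cells grown in 5% serum and, as the treatment protocol reads, starved of serum for 12 h. Untreated cells (3 libraries, numbered 1, 2 and 3) received no aristolochic acid, and no vehicle or matched time is given for them. The aristolochic acid cells (3 libraries, numbered 1, 4 and 6) were exposed for 48 h to aristolochic acid, a plant toxin that forms DNA adducts, at 5 µg/ml. Both of these groups are labelled wild type. The MYDGF cells (3 libraries, numbered 1, 3 and 4) overexpressed MYDGF, a secreted growth factor, from an adenovirus with the vector GV314, and received the same toxin at the same dose and time. No control vector is given for the other two groups, so MYDGF and the virus cannot be told apart. The treatment labels of untreated 2 and MYDGF 3 read HK-3 and those of untreated 3 and MYDGF 4 read HK-4, while the cell line entry of all 9 reads HK-2. Separate cultures are not named, so every p-value here reflects only how far the samples of a group lie apart, and that spread may be technical.

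Sequences around the annotated start were at hand for 1262 of the 2221 loci, as windows of 300 bases (250 before to 50 after the start) of the RefSeq table on GRCh38.p14. The 6 windows below belong to loci described later, 3 of them at about 1 CPM or more in untreated cells and 3 nearly silent there, and show how CG-rich and CG-poor starts differ. They are printed 5′ to 3′ on the strand that RefSeq gives, with each CG dinucleotide in capitals.
LINC00205, chr21:45287802-45288101, plus strand: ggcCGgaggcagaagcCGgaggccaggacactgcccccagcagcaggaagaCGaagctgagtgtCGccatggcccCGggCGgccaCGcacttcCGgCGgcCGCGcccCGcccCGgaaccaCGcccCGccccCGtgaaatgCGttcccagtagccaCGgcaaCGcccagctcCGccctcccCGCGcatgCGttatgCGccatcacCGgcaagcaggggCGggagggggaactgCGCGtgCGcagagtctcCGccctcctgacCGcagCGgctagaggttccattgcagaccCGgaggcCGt
LINC00235, chr16:527358-527657, minus strand: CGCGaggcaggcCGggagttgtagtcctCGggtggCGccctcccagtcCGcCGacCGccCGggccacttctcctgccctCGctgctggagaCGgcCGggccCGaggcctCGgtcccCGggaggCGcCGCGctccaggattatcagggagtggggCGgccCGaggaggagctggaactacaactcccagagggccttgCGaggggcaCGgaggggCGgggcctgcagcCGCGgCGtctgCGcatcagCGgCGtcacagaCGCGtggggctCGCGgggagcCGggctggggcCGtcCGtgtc
LINC00641, chr14:21206851-21207150, minus strand: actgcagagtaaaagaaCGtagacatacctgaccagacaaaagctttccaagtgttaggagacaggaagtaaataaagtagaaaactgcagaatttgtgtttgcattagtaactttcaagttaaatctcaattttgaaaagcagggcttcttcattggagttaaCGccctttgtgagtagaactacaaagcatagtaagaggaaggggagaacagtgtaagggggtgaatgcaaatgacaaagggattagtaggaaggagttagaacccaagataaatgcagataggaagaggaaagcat
LINC02348, chr15:101614290-101614589, minus strand: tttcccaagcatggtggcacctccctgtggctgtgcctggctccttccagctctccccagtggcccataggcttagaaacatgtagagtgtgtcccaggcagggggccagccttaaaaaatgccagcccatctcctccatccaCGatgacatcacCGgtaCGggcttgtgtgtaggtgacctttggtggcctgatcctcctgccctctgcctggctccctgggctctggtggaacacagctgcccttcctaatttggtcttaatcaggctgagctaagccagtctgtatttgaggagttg
LINC02623, chr10:42871271-42871570, plus strand: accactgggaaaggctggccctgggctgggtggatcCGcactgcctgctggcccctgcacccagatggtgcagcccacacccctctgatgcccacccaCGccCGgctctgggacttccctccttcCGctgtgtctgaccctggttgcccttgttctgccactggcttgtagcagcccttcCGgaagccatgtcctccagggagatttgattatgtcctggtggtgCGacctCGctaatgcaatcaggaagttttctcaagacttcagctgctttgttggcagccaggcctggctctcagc
LINC01031, chr1:193304495-193304794, plus strand: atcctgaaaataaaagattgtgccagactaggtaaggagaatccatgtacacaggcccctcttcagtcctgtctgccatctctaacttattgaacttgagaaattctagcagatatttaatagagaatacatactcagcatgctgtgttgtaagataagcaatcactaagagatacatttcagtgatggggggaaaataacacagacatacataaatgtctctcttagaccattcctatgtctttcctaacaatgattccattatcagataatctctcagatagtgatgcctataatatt

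The windows of LINC00205 and LINC00235, both of which begin within 1 kb of an active coding gene on the opposite strand, held 34 and 36 CG dinucleotides. That of LINC00641, one of the most abundant loci per length and lying behind another gene, held 2. The windows of LINC02348, LINC02623 and LINC01031 held 3, 7 and 0. Over all matched LINC loci the median number of CG dinucleotides per window was 4, against 14 for the first window of each of the 27305 genes in the RefSeq table. The letters CG read the same on both strands. By untreated level, the median was 3 in 936 loci without an untreated count, 5 in 98 loci under 0.1 CPM, 11.5 in 130 loci from 0.1 to 1 CPM and 19.5 in 98 loci at 1 CPM or more. A window with 10 or more CG dinucleotides was held by 17.5%, 27.6%, 51.5% and 70.4% of these classes, and by 56.0% of all genes in the table. These are descriptions of the annotated starts, which may differ from the starts used in these cells.

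**Figure D1:**
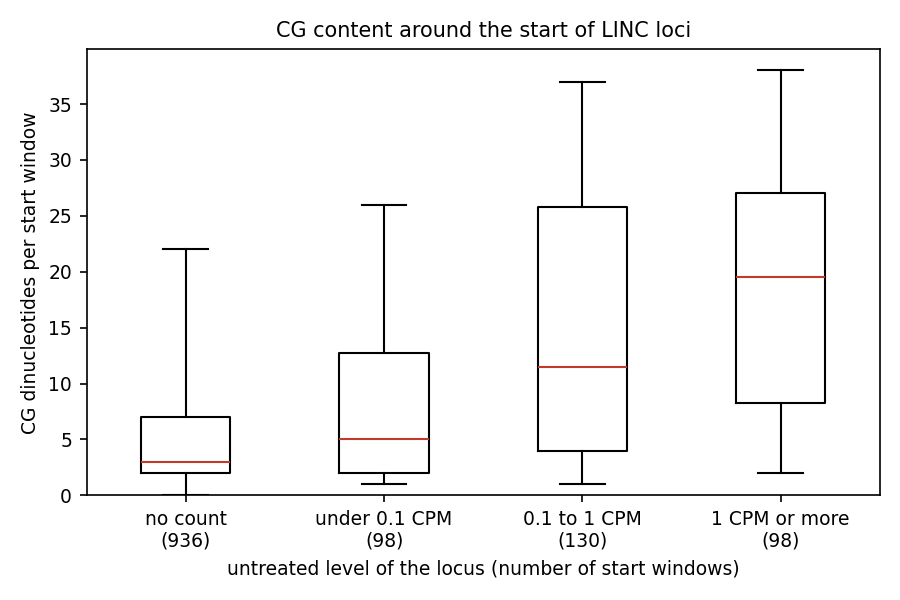
Number of CG dinucleotides per 300-base start window (vertical axis) for matched LINC loci in 4 classes of untreated level (horizontal axis, number of windows in brackets); the line in each box is the median, the box the quartiles and the whiskers the 5th and 95th percentiles. The median rises from 3 in loci without an untreated count to 19.5 in loci at 1 CPM or more.

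Total counts per library ran from 10876572 to 14254786. LINC loci took 0.123 to 0.127% of them in untreated cells, 0.150 to 0.180% in the toxin group and 0.141 to 0.156% in the MYDGF group. The number of LINC loci with a count was 454 to 470, 592 to 712 and 557 to 611 in these groups. MYDGF itself stood at 123 to 131 CPM in untreated cells, 74.2 to 105 CPM with aristolochic acid and 510 to 663 CPM in the MYDGF libraries (log2 fold change 2.72 over aristolochic acid, SE 0.14, adjusted p = 2.74e-05 in edgeR's quasi-likelihood test). All 12 proximal tubule and epithelial markers had counts in every group, with sums of 961 to 991, 1520 to 1636 and 1279 to 1305 CPM, nearly all from KRT8 and KRT18. LRP2, a defining receptor of the proximal tubule, stood at 0.0504, 0.276 and 0.149 CPM on average. Leukocyte markers (4, with CD3E at 0 throughout) summed to 1.17 to 3.10 CPM over all libraries and fibroblast markers (4, with LUM and DCN at or near 0) to 6.81 to 14.2 CPM. The 4 endothelial markers summed to 0.984 to 1.26, 6.56 to 12.4 and 3.59 to 4.14 CPM in the 3 groups, mostly from PECAM1, and their part in the results was not tested. In such bulk samples, fewer cells with a transcript and less of it per cell cannot be told apart.

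In untreated cells, 165 LINC loci stood at 1 CPM or more, 238 from 0.1 to under 1 CPM and 188 below 0.1 CPM, and 1630 had no count in any of the 3 libraries. Of the 165 loci at 1 CPM or more, 12 overlapped an active coding gene and 41 lay within 10 kb of one. Of the 1630 loci without a count, these numbers were 14 and 72. Over 100 kb from any active gene lay 49 of the 165 and 1068 of the 1630. Per length (FPKM, counts scaled to gene length and library total, as deposited), the highest untreated level was that of LINC00648, with 12.2 ± 0.889 (SD, n = 3). LINC01963, 10.7 kb behind XRCC5, which encodes a subunit of the Ku DNA end-binding complex, followed with 7.83 ± 1.14 FPKM. LINC00641, 2.24 kb behind the 3′ end of HNRNPC, which encodes a protein that binds nascent pre-mRNA, came next with 5.92 ± 1.17 FPKM. The next 7 loci in this order ran from LINC00294 at 4.61 ± 0.305 to LINC00857 at 3.35 ± 0.807 FPKM. Neighbours in the order overlapped within 1 SD, except LINC00648 with LINC01963 and LINC00205 (4.27 ± 0.18) with LINC02531 (3.89 ± 0.04). By counts alone LINC00963 led, with 117, 119 and 136 CPM, but its FPKM was 2.46.

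With aristolochic acid the LINC loci summed to more than in untreated cells, but the exact test on 3 against 3 libraries cannot call a difference of any size. The sum over all 2221 loci was 1274, 1282 and 1252 CPM in untreated cells and 1486, 1792 and 1794 CPM with aristolochic acid, a ratio of 1.33 without overlap (exact two-sided permutation test p = 0.1, the smallest that 3 against 3 libraries allow). Of the 956 loci with a count, 257 (26.9%) were higher in all 3 toxin libraries than in all 3 untreated ones, beside 23.4% of all genes with a count, and 101 (10.6%) were lower throughout, beside 18.3%. The filter on low counts kept 273 LINC loci, and 1948 were not tested. In edgeR's quasi-likelihood test 119 of the 273 rose (43.6%, beside 29.7% of all 18267 genes tested) and 55 fell (20.1%, beside 29.3%). Their median log2 fold change was 0.50, against -0.01 for all genes tested. The count of risers and this median cannot be read alone, because a locus that is silent in untreated cells passes the filter only if it is high elsewhere. The 17 tested loci without an untreated count and the 16 under 0.1 CPM were therefore all called higher.

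Among abundant loci the balance of rises and falls depended on the libraries that set the level. Of the 165 at 1 CPM or more in untreated cells, 162 were tested, of which 36 rose (22.2%, beside 29.7% of all genes tested) and 53 fell (32.7%, beside 29.3%). All 3 toxin libraries were above all 3 untreated ones in 38 of the 165 (23.0%) and below in 66 (40.0%). Choosing loci as high in untreated cells favours falls. Of the 197 loci at 1 CPM or more in the mean of all 9 libraries, 82 rose (41.6%, beside 29.7% of all genes tested) and 43 fell (21.8%, beside 29.3%). Throughout, 85 were higher (43.1%, beside 23.4% of all genes with a count) and 47 lower (23.9%, beside 18.3%). This choice favours rises, since most of the 9 libraries received the toxin. Loci without an untreated count, such as LINC00639, enter the class through them. The sum of the 165 went from 1154 to 1176 CPM in untreated cells to 1244 to 1433 CPM, a ratio of 1.15. Most of this difference came from 1 locus: the mean sum went from 1168 to 1343 CPM, and LINC00641 alone from 42.9 to 186 CPM. LINC01963 also rose. Of the 238 loci from 0.1 to 1 CPM, 78 were tested, of which 50 rose (64.1%, beside 29.7% of all genes tested) and 2 fell (2.56%, beside 29.3%). The filter favours risers here too, since a locus this low in untreated cells passes more readily if it is high elsewhere. Without the filter, 75 of the 238 (31.5%) were higher throughout and 33 (13.9%) lower, beside 23.4% and 18.3% of all genes with a count. The sum of the 238 went from 88.6 to 97.6 CPM to 144 to 217 CPM (ratio 1.97). The 1630 loci without an untreated count summed to 47.7, 126 and 91.0 CPM with aristolochic acid, where the library numbered 1 was the lowest. A class chosen as without a count in untreated cells can only rise, and choosing loci as low there favours rises. The median CG number of the start window was 20 in 20 loci at 1 CPM or more that rose, 22 in 30 that fell and 13 in 45 that were not called, and 3 in the 17 windows of called loci under 0.1 CPM.

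**Figure D2:**
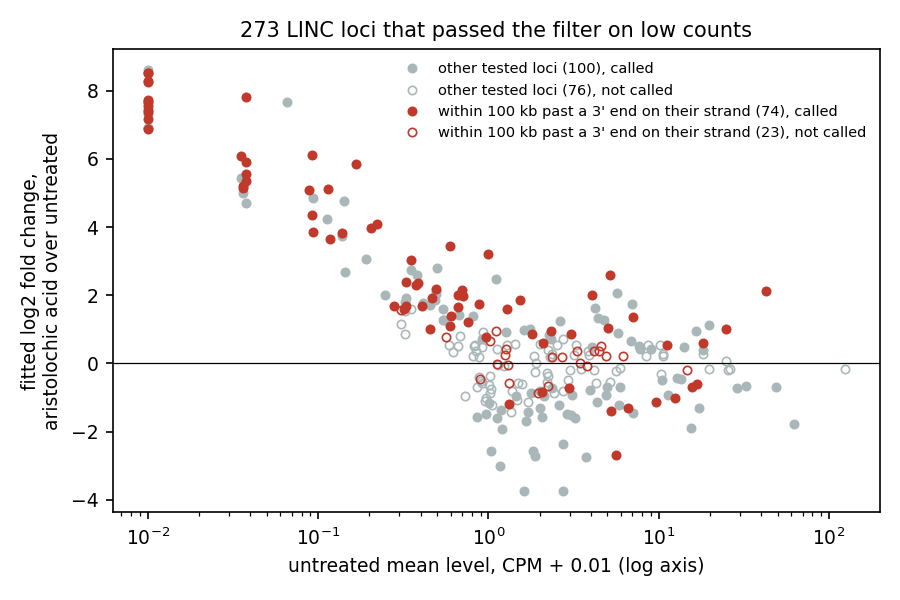
Fitted log2 fold change with aristolochic acid (vertical axis) against untreated mean CPM plus 0.01 (horizontal, log axis) for the 273 tested LINC loci; filled points passed the threshold, and red points lie within 100 kb behind the 3′ end of their nearest active gene on the same strand. Silent loci at the left stand high by the construction of the filter, and at 1 CPM or more both directions occur.

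The difference lay mainly in loci behind the 3′ end of an active gene, whose mean sum went from 298 to 674 CPM while that of all LINC loci went from 1269 to 1691 CPM. Within 100 kb of an active gene and not overlapping it, 281 loci lay behind that gene's 3′ end on the same strand. Their sum was 305, 305 and 285 CPM in untreated cells and 527, 753 and 741 CPM with aristolochic acid, which is 2.26 times as much, with no overlap (exact p = 0.1). The other arrangements had sums nearer to their untreated ones. The 186 loci facing a 3′ end on the opposite strand had 0.964 times their untreated sum (exact p = 0.4), the 198 that face the start of a gene on their own strand 1.06 times (p = 0.2 by the same exact test), and the 243 facing a 5′ end on the opposite strand 0.877 times (exact p = 0.1). The 1246 loci with no active gene within 100 kb had 1.04 times theirs (exact p = 0.5). LINC00963 made up 60.5% of the counts of the 198 loci facing a start of their own strand. Without it their sum was also higher with the toxin, by the log2 ratio given at the end. As a share of all LINC counts, the loci behind a 3′ end took 23.9, 23.8 and 22.7% in untreated cells and 35.4, 42.0 and 41.3% with the toxin. These shares did not overlap, and the exact p was again 0.1.

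**Figure D3:**
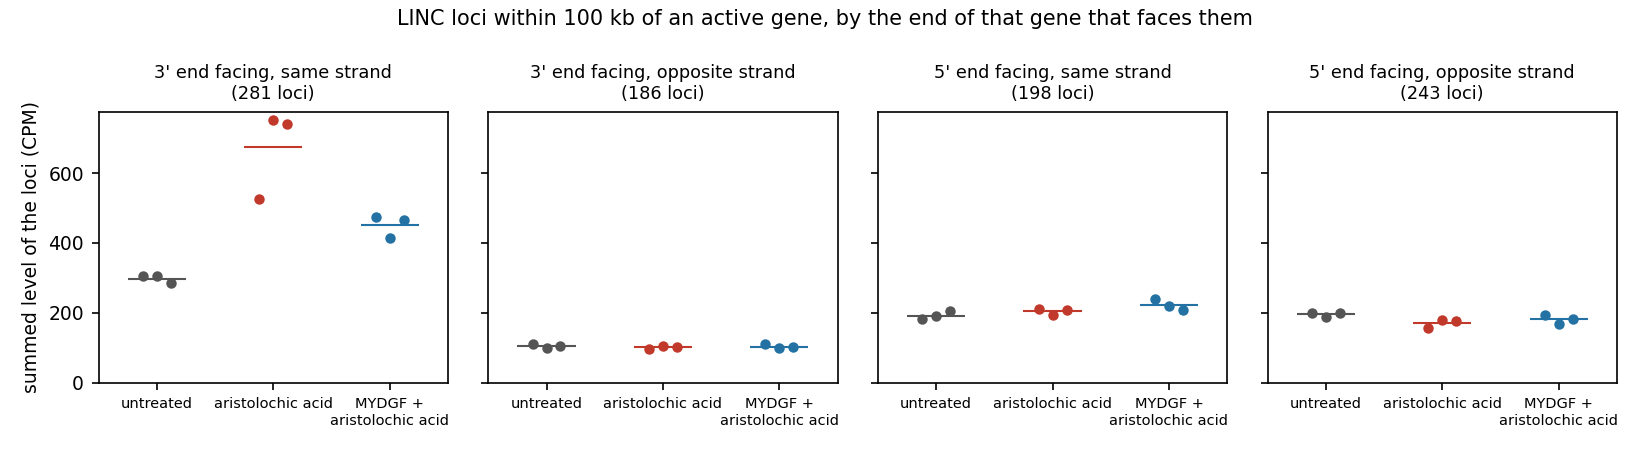
Summed CPM of LINC loci within 100 kb of their nearest active gene (vertical axis) in each library (points; line, mean of 3) for the 4 arrangements of strand and facing gene end. Only in the first panel, the 281 loci behind a 3′ end on the same strand, do the aristolochic acid libraries (527 to 753 CPM) stand above all untreated ones (285 to 305 CPM) by more than the spread within the groups, and the MYDGF libraries (415 to 475 CPM) lie between. In the third panel LINC00963 makes up 60.5% of the counts, and without it that sum is also higher with the toxin.

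Of the 281 loci behind a 3′ end, 123 (43.8%) were higher in all toxin libraries than in all untreated ones and 13 (4.63%) were lower. The same counts were 14 and 18 of the 186, 22 and 14 of the 198, and 28 and 20 of the 243. With no active gene within 100 kb they were 53 and 29 of 1246. In the order given, 245, 95, 111, 144 and 302 loci of these classes had a count in any library. Of all genes with a count, 23.4% were higher and 18.3% lower throughout. Among the 97 tested loci behind a 3′ end, 64 rose (66.0%, beside 29.7% of all genes tested) and 10 fell (10.3%, beside 29.3%), a count that includes silent loci let in by the filter. LINC00641 made up 24.3% of the counts of this class, and without it the log2 ratio of the sum was 0.93 in place of 1.18. Among the 44 loci of the class that already stood at 1 CPM or more, the sum went from 263 to 284 CPM to 415 to 549 CPM, 1.796 times as much. Most of this difference came from LINC00641, with 30.2% of the counts of the 44. It went from a mean of 42.9 to 186 CPM, where the mean sum of the 44 went from 276 to 495 CPM. There 14 rose (31.8%, near the share of all genes) and 10 fell (22.7%), against 2 and 8 of 17, 1 and 7 of 18, and 2 and 9 of 19 tested loci in the arrangements facing a 3′ end on the opposite strand, a 5′ end of their own strand, and one of the opposite strand.

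The share of loci that were higher fell with distance from the gene end. Behind a 3′ end on the same strand, 43 of 74 loci within 10 kb (58.1%), 63 of 133 from 10 to 50 kb (47.4%) and 17 of 74 from 50 to 100 kb (23.0%) were higher in all toxin libraries. Of these classes 71, 121 and 53 loci had a count in any library. Their sums were 2.53, 1.85 and 2.10 times the untreated ones. LINC00641 made up 37.9% of the counts of the first class, LINC01963 27.1% of the second and LINC00630 17.5% of the third. On average LINC00641 went from 42.9 to 186 CPM, where the sum within 10 kb went from 174 to 439 CPM. Taking for each locus the nearest active gene upstream on its strand, whether or not another gene is nearer, 50 of 83 loci within 10 kb were higher throughout, and 58 of 1539 with none within 200 kb. Only 439 of the 1539 had a count in any library, against 80 of the 83, and a locus without one cannot be higher. By this rule the sums within 10 kb, from 10 to 50 kb and from 50 to 100 kb were 2.54, 1.66 and 0.970 times the untreated ones. The exact permutation p was 0.1, 0.1 and 0.9. LINC00641 made up 37.3% of the counts of the first of these classes and LINC00205 27.2% of the last. Close to a gene the other arrangements also moved: within 10 kb, the 40 loci that face a start of their own strand went from 13.1 to 15.2 CPM up to 22.9 to 24.6 CPM with the toxin. The 36 facing a 3′ end on the opposite strand went from 25.3 to 26.7 CPM to 15.1 to 17.3 CPM, and the 54 facing a 5′ end on the opposite strand from 154 to 171 CPM to 122 to 139 CPM. None of these 3 pairs of ranges overlapped (exact p = 0.1 each).

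**Figure D4:**
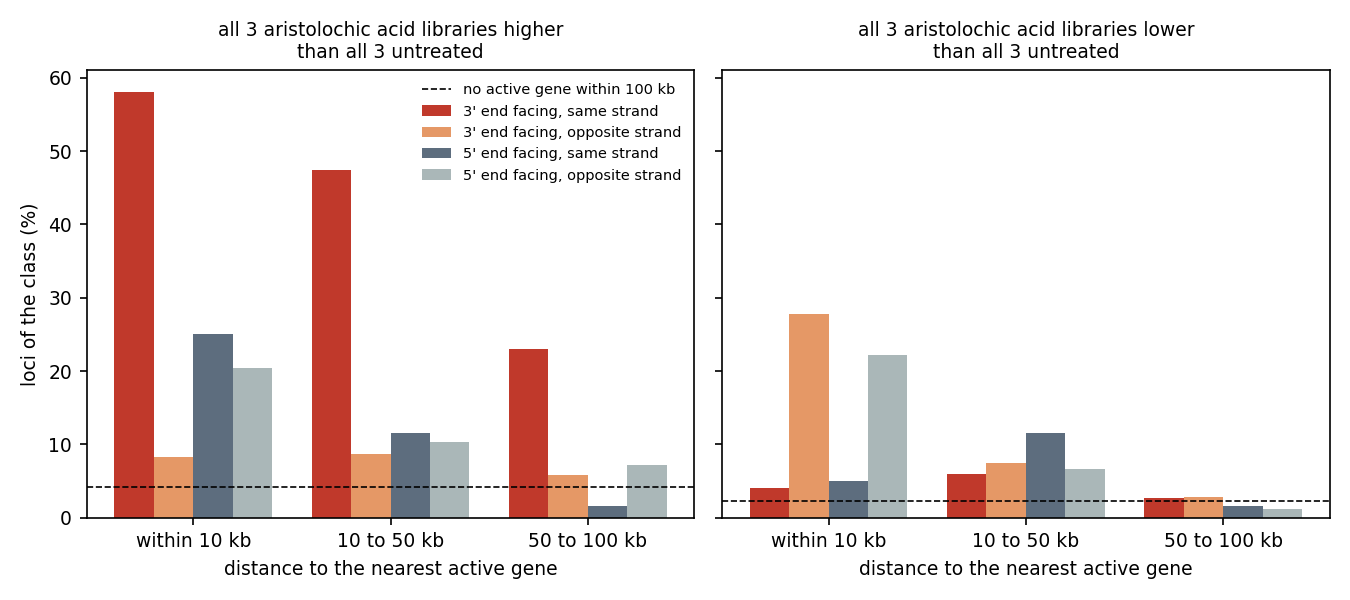
Share of LINC loci (vertical axis, percent of the class) whose 3 aristolochic acid libraries were all higher (left) or all lower (right) than the 3 untreated ones, by distance to the nearest active gene (horizontal axis) and by facing gene end and strand (bars); the dashed line gives loci with no active gene within 100 kb. Behind a 3′ end on the same strand the share of higher loci is 58.1, 47.4 and 23.0% in the 3 distance classes. Shares are of all loci of a class, also those without a count, and only 302 of the 1246 loci of the dashed line had one.

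As a description, since 32 of the 113 risers with a known strand were under 0.1 CPM in untreated cells and entered the test through the treated groups, 76 of the 113 (67.3%) had an active gene within 100 kb upstream on their strand, against 20 of 54 that fell (37.0%) and 36 of 97 that were not called (37.1%). The change of a locus followed that of the gene in front of it only loosely. Over the 97 tested pairs within 100 kb, the Spearman coefficient between both log2 fold changes was 0.27, a description over loci that share libraries. Of the 64 risers, 19 stood behind a gene that rose and 19 behind one that fell. Both counts lie near the shares of all genes tested, 29.7% and 29.3%, and are not a result about the pairs.

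LINC00641 (chr14:21200079-21206900, minus strand, the positions of the table read as GRCh38) was the most abundant riser. It stood at 46.2, 49.1 and 33.4 CPM in untreated cells, 139, 209 and 209 CPM with aristolochic acid and 132, 98.4 and 125 CPM with MYDGF. The groups of untreated and toxin libraries did not overlap and differed beyond the spread between libraries (log2 fold change 2.11, SE 0.20, adjusted p = 3.33e-05), while HNRNPC in front of it had a log2 fold change of 0.46. LINC01963 stood at 25.5, 28.02 and 21.1 CPM and 46.7, 44.9 and 58.9 CPM in these groups (log2 fold change 1.01, SE 0.13, adjusted p = 1.66e-04), again without overlap. XRCC5, in front of it, had a log2 fold change of -0.20. LINC00511 (chr17:72290091-72640472), a locus of 350 kb often reported as raised in carcinomas, begins 5.48 kb behind SLC39A11, which encodes a zinc transporter. It stood at 4.91, 3.19 and 4.09 CPM and 12.2, 17.3 and 19.3 CPM (log2 fold change 1.997, SE 0.22, adjusted p = 7.18e-05), all toxin libraries being higher, while SLC39A11 had a log2 fold change of -0.73.

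The loci with the largest fitted rises had been nearly silent. LINC02348 (chr15:101602786-101614531), which lies 6.91 kb beyond the 3′ end of TM2D3 and has no strand in GENCODE 29, had 2 counts over the 3 untreated libraries and 463 over the 3 toxin libraries. It stood at 0, 0.168 and 0 CPM, 8.42, 17.2 and 12.6 CPM and 3.6, 1.09 and 3.82 CPM in the 3 groups, with no overlap between any of them. The ratio of toxin to untreated CPM was 242, with an exact 95% interval of 66.5 to 2002 that covers counting error only. LINC01191, 8.12 kb behind ACTR3, which encodes a subunit of the Arp2/3 complex that branches actin, had 1 untreated count and stood at 4.53, 8.73 and 11.4 CPM with the toxin (ratio 306, interval 54.5 to 12123).

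Another 8 of the largest rises had no count at all in untreated cells, so that their folds are lower bounds, computed as if the untreated group had held 3 counts. LINC02765 (chr1:225447233-225465400), 21.4 kb behind ENAH, an actin regulator, although LBR is nearer, stood at 2.75, 3.32 and 5.43 CPM with aristolochic acid, at least 47.3-fold higher. LINC00639, 83.6 kb behind SEC23A, a coat protein of vesicles leaving the endoplasmic reticulum, stood at 1.86, 5.02 and 3.96 CPM, at least 45.6-fold higher. The longer of the 2 rows named LINC00486, 4.31 kb behind TTC27, stood at 1.94, 5.18 and 3.59 CPM, at least 45.2-fold higher. Each of these was detected in all 3 toxin libraries, and library 1 held the lowest value of each. LINC01031 (chr1:193304745-193365953), 49.9 kb behind CDC73, a subunit of the PAF1 elongation complex, stood at 1.78, 3.63 and 3.77 CPM, at least 38.3-fold higher. LINC02623 (chr10:42871521-42874060), 36.6 kb behind BMS1, a GTPase of ribosome assembly, stood at 0.81, 4.87 and 3.31 CPM, at least 37.9-fold higher. The remaining 3, LINC02631, LINC01498 and LINC00384, lay 28.1 kb behind SPOPL, 7.19 kb behind SART3 and 43.0 kb behind KATNAL1 and were at least 26.4-, 25.8- and 25.1-fold higher. All 10 were called higher in edgeR's test, as was every tested locus under 0.1 CPM in untreated cells, so these calls add nothing to the counts.

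**Figure D5:**
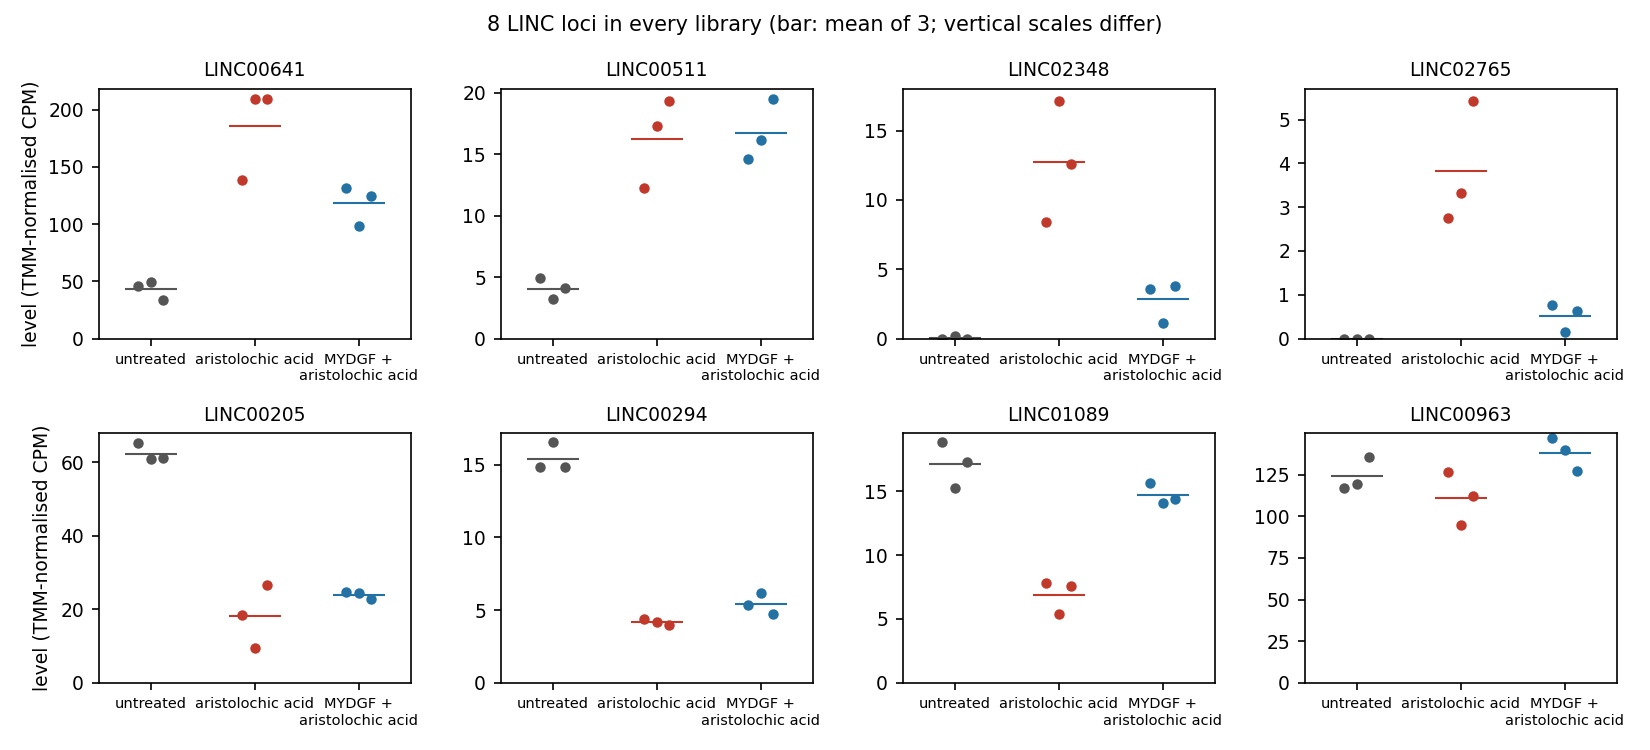
TMM-normalised CPM (vertical axes, each with its own scale from 0) of 8 LINC loci in every library (points; line, mean of 3), by group. LINC00641, LINC00511, LINC02348 and LINC02765 are higher in all aristolochic acid libraries than in all untreated ones, LINC00205, LINC00294 and LINC01089 are lower, and the groups overlap for LINC00963.

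Of the 66 tested loci without an active gene within 100 kb, 20 rose (30.3%, near the 29.7% of all genes tested) and 15 fell (22.7%, beside 29.3%). The 4 with the largest rises among them were LINC01208, LINC02367, LINC02968 and LINC01512. LINC01208 had no untreated count and stood at 1.38, 2.7 and 1.75 CPM with aristolochic acid, at least 24.7-fold higher. It spans 452 kb and lies 152 kb behind TBL1XR1, a corepressor subunit. LINC02367, 397 kb from M6PR, stood at 0, 0.252 and 0 CPM and 1.54, 3.4 and 2.76 CPM, a ratio of 32.4 (95% interval 10.7 to 159.8). LINC02968, 130 kb behind AKAP17A, stood at 0, 0.0839 and 0 CPM and 0.972, 0.773 and 1.1 CPM, a ratio of 35.5 (interval 5.95 to 1443). LINC01512, 105 kb from VEGFA and with no strand in GENCODE 29, stood at 0, 0.252 and 0.151 CPM and 0.729, 1.31 and 0.644 CPM (log2 fold change 2.68, SE 0.63, adjusted p = 0.00474). The toxin and untreated libraries did not overlap for any of the 4.

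Of the 6 loci with the largest falls, LINC02593 lay within 50 kb behind an active gene on its strand. LINC00106 lay within 100 kb of one, 86.0 kb behind CSF2RA, although ASMTL on the opposite strand is nearer. LINC00173 stood at 2.69, 3.02 and 2.5 CPM in untreated cells and 0.405, 0 and 0.184 CPM with aristolochic acid (log2 fold change -3.75, SE 0.58, adjusted p = 4.68e-04). LINC02701 went from 1.82, 1.51 and 1.51 CPM to 0.162, 0 and 0.184 CPM (log2 fold change -3.75, SE 0.54, adjusted p = 3.07e-04). LINC00235 (chr16:525155-527407), 0.305 kb head to head from CAPN15, a calpain protease, went from 0.872, 1.26 and 1.36 CPM to 0.162, 0.232 and 0 CPM (log2 fold change -2.99, SE 0.55, adjusted p = 0.00128). In all 3 the toxin libraries lay below every untreated one. The other 3 of the 6 largest falls were LINC01424, 0.057 kb head to head from UBE2G2, a ubiquitin-conjugating enzyme, with a log2 fold change of -2.75, LINC00106 with -2.71 and LINC02593 with -2.70. LINC02593 lies 23.2 kb behind NOC2L and so belongs to the class whose sum was higher.

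LINC00205 (chr21:45288035-45297806, plus strand) was an abundant locus that begins head to head with a coding gene. It starts 0.137 kb from the start of POFUT2, which encodes a protein O-fucosyltransferase, within the CG-rich window shown above. It stood at 65.1, 60.8 and 61.1 CPM in untreated cells, 18.4, 9.5 and 26.7 CPM with aristolochic acid and 24.8, 24.4 and 22.7 CPM with MYDGF. Every toxin library was below every untreated one (log2 fold change -1.78, SE 0.28, adjusted p = 5.24e-04), and POFUT2 itself had a log2 fold change of -0.22. LINC00294 (chr11:33076149-33079454), which overlaps CSTF3 and TCP11L1 in the table, stood at 14.8, 16.5 and 14.8 CPM and 4.37, 4.17 and 3.96 CPM (log2 fold change -1.88, SE 0.14, adjusted p = 9.38e-06), without overlap. Without known strand in the counting, its reads cannot be told from those of the genes it overlaps. LINC00648, the most abundant locus per length, 1776 kb from the nearest active gene, went from 48.3, 52.9 and 46.2 CPM to 31.3, 27.7 and 32.9 CPM (log2 fold change -0.68, SE 0.09, adjusted p = 2.43e-04). Of the other loci with the highest FPKM, LINC00842, 6.58 kb behind ANXA8L1, rose (log2 fold change 0.54), while LINC00997 and LINC00857 did not pass the threshold (-0.30 and -0.20). LINC02531 rose (0.71) and LINC02041 fell (-1.60), the first call being lost in DESeq2, without the filter on low counts, and without untreated 1, 2 or 3 or aristolochic acid 4 or 6, and the second without untreated 3 or aristolochic acid 4.

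In all, 24 LINC loci began within 1 kb of an active gene's start on the opposite strand. Of the 13 tested, 5 rose and 5 fell, where 29.7% of all genes tested rose and 29.3% fell. The Spearman coefficient with the change of the partner was -0.17. Of the 5 that rose, 3 had a partner that rose and 2 one that fell, and of the 5 that fell, 3 had a partner that fell and 2 one that rose. These counts are too small to be read against the shares of all genes. LINC01498 shows both positions: it begins 0.254 kb from FICD, an enzyme that modifies the chaperone BiP, and lies behind SART3. It was at least 25.8-fold higher with the toxin, while FICD had a log2 fold change of -2.84.

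With MYDGF on top of aristolochic acid, loci behind a 3′ end stood lower than with the toxin alone and above untreated cells. The sum over all loci was 1556, 1417 and 1489 CPM, 0.880 times that with the toxin alone, with overlap (exact p = 0.3), and 1.17 times the untreated sum without overlap (exact p = 0.1). The 281 loci behind a 3′ end on the same strand summed to 475, 415 and 465 CPM, 0.671 times the sum with the toxin alone and 1.52 times the untreated sum, both without overlap (exact p = 0.1). Their share of LINC counts was 30.6, 29.3 and 31.3%, between the other groups and apart from both. The other 3 arrangements had 1.02 to 1.09 times their sum with the toxin (exact p from 0.3 to 0.7). LINC00963 made up 60.5% of the counts of loci facing a start of their own strand. Without it their sum was lower with MYDGF, by the log2 ratio given at the end. The 3 arrangements had 1.03 to 1.14 times their toxin sums within 10 kb, 0.810 to 0.907 from 10 to 50 kb and 0.797 to 1.24 from 50 to 100 kb. Loci overlapping an active gene had 0.811 times theirs (exact p = 0.2). Loci without an active gene within 100 kb had 1.09 times theirs, with 412 to 424 CPM against 362 to 401 CPM (exact p = 0.1).

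Of the 956 loci with a count, 134 (14.0%) were lower in all 3 MYDGF libraries than in all 3 libraries with the toxin alone, beside 15.6% of all genes with a count, and 57 (5.96%) were higher, beside 12.4%. Of the 134, 76 lay behind a 3′ end on the same strand, which is 27.0% of the 281 loci of that class, and 8 of the 281 (2.85%) were higher. Of the 281, 245 had a count. In 123 of the 281 all toxin libraries stood above all untreated ones. Both comparisons share the toxin libraries, which favours falls in this class. In edgeR's test 46 of the 273 fell (16.8%, beside 14.7% of all genes tested) and 20 rose (7.33%, beside 14.7%). The share that fell was thus near that of all genes, and the share that rose was below it. Of the 97 tested loci behind a 3′ end, 32 fell (33.0%) and 2 rose (2.06%), where the filter had let in silent loci that were high with the toxin. The counts rest on single libraries: without aristolochic acid 1, 75 fell, without aristolochic acid 4 or 6, 21 or 24, and without MYDGF 3 or 4, 21 or 23. The number that rose was 11 without aristolochic acid 4 and 9 without MYDGF 3 or 4.

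Against untreated cells, 91 LINC loci were still higher with MYDGF and toxin (beside 26.8% of all genes tested, where the 91 are 33.3% of 273) and 40 lower (14.7% of 273, beside 24.3%). Both this and the preceding comparison share the aristolochic acid or the untreated libraries with the first. Of the 119 loci that rose with the toxin, 42 (35.3%) were called lower with MYDGF, beside 35.2% of all genes that rose. Of the 55 that fell, 15 (27.3%) were called higher with MYDGF, beside 31% of all genes that fell. These shares lie near or below those of all genes, and since both calls use the toxin libraries they are not a result about the loci. Of the 42, 19 were still called higher than untreated, and of the 15, 2 were still called lower. The 42 became 73 without aristolochic acid 1, 19 and 22 without aristolochic acid 4 and 6, and 21 and 22 without MYDGF 3 and 4. The 15 became 9 without untreated 2 or aristolochic acid 4, and 7 without MYDGF 3 or 4.

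LINC02623, at 0.81, 4.87 and 3.31 CPM with the toxin, stood at 0.153, 0 and 0.212 CPM with MYDGF (log2 fold change -4.48, SE 0.91, adjusted p = 0.0109). LINC02765, at 2.75, 3.32 and 5.43 CPM with the toxin, stood at 0.766, 0.156 and 0.636 CPM (log2 fold change -2.84, SE 0.49, adjusted p = 0.00621). LINC00628, 26.8 kb behind PPP1R15B, which directs a phosphatase to eIF2α, stood at 0, 0.0839 and 0.151 CPM in untreated cells, 1.46, 4.48 and 3.04 CPM with the toxin and 0.766, 0.468 and 0.141 CPM with MYDGF (log2 fold change -2.70, SE 0.58, adjusted p = 0.00902). LINC00628 also overlaps a listed protein-coding gene below the limit for active genes, and the reads of the overlap cannot be told apart. The MYDGF libraries lay below all toxin libraries for each of these 3. LINC03025 has 2 rows, on chr9:68306528-68330626 and chr9:41100793-41119909, whose reads may be shared if the copies are alike. The first, which overlaps PGM5 on the same strand, stood at 0.317, 0.168 and 0.984 CPM in untreated cells, 1.46, 5.33 and 3.77 CPM with the toxin and 0.536, 0.234 and 0.353 CPM with MYDGF (log2 fold change -3.20, SE 0.64, adjusted p = 0.00666). LINC02348, at 3.6, 1.09 and 3.82 CPM with MYDGF, also fell (log2 fold change -2.16, SE 0.45, adjusted p = 0.00797). For both, the MYDGF libraries were all below the toxin libraries, and for LINC03025 they overlapped with the untreated ones. LINC01679, 52.1 kb behind SIK1, a salt-inducible kinase, went from 0.891, 2.94 and 1.2 CPM with the toxin to 0, 0 and 0.283 CPM (log2 fold change -3.96, SE 0.94, adjusted p = 0.019), and this call was lost without aristolochic acid 4, MYDGF 1 or MYDGF 3. That of LINC01498, at 0.23, 0 and 0.495 CPM with MYDGF (log2 fold change -2.99, SE 0.80, adjusted p = 0.029), was lost without aristolochic acid 4 or 6 or MYDGF 1 or 3. LINC00641 had a log2 fold change -0.65, SE 0.19, adjusted p = 0.0325 against the toxin alone, which was lost without aristolochic acid 4 or 6 or MYDGF 3 or 4. Each of these 3 calls depends on single libraries. LINC00511 overlapped between the toxin and MYDGF groups, with 14.6, 16.2 and 19.5 CPM in the latter (log2 fold change 0.04, SE 0.20, adjusted p = 0.89).

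Of the 20 loci that rose with MYDGF, LINC01089 (chr12:121795267-121803906), which overlaps RHOF, a small GTPase of filopodia, stood at 18.9, 15.3 and 17.3 CPM in untreated cells, 7.77, 5.41 and 7.54 CPM with aristolochic acid and 15.6, 14.1 and 14.4 CPM with MYDGF. The MYDGF libraries lay above every toxin library and overlapped with the untreated ones (log2 fold change 1.09, SE 0.15, adjusted p = 0.00182). LINC01311, which faces the 3′ end of SLC25A1, the mitochondrial citrate carrier, on the opposite strand at 2.73 kb, stood at 2.85, 2.77 and 3.63 CPM untreated, 2.02, 1.62 and 1.2 CPM with the toxin and 4.06, 5.0 and 3.46 CPM with MYDGF (log2 fold change 1.36, SE 0.24, adjusted p = 0.00448). LINC01273, 14.2 kb from CEBPB, a transcription factor of the acute phase response, stood at 4.52, 4.78 and 3.78 CPM untreated, 1.7, 2.32 and 1.93 CPM with the toxin and 4.82, 5.46 and 3.04 CPM with MYDGF (log2 fold change 1.15, SE 0.25, adjusted p = 0.00955). LINC01842 stood at 2.69, 3.02 and 3.4 CPM untreated, 1.21, 0.927 and 1.01 CPM with the toxin and 2.45, 2.19 and 2.4 CPM with MYDGF (log2 fold change 1.15, SE 0.21, adjusted p = 0.00455). In each of the 3 the MYDGF libraries lay above all toxin libraries. LINC01252 had the largest such change, 0.324, 0.0773 and 0.092 against 0.613, 0.937 and 0.636 CPM (log2 fold change 2.07, SE 0.57, adjusted p = 0.0248), a call that was lost without aristolochic acid 4 or 6 or MYDGF 3 or 4. The call of LINC02274 (log2 fold change 1.81) was lost without aristolochic acid 4 or MYDGF 3 or 4. Those of LINC00235, LINC01852, LINC01778 and LINC03026, with log2 fold changes of 0.96 to 1.92, were lost in 9 to 13 of 14 alternative fits. LINC00235 lost its call without any 1 of the 9 libraries, and LINC01852 without any 1 except aristolochic acid 6. LINC01778 lost it without untreated 1, any toxin library or MYDGF 3 or 4, and LINC03026 without untreated 3, aristolochic acid 4 or 6 or any MYDGF library.

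Of 16 LINC loci often described in other work, 14 were found and the other two were not analysed here. LINC00662 rose from 17.4, 15.5 and 16.6 CPM to 27.04, 37.2 and 31.9 CPM (log2 fold change 0.95, SE 0.12, adjusted p = 1.77e-04), with the nearest active gene 1411 kb away. LINC00665, a locus that encodes a micropeptide, rose from 20.05, 17.5 and 17.02 CPM to 25.2, 24.8 and 33.3 CPM (log2 fold change 0.61, SE 0.17, adjusted p = 0.0134). LINC00467, which also encodes a peptide, fell from 12.1, 14.3 and 20.4 CPM to 10.4, 10.6 and 7.91 CPM (log2 fold change -0.70, SE 0.21, adjusted p = 0.017), a call lost without untreated 3 or aristolochic acid 6. LINC01116 stood at 1.98, 1.51 and 1.82 CPM, 0.972, 1.0 and 0.92 CPM and 1.91, 1.87 and 1.7 CPM, and it fell with the toxin (log2 fold change -0.87, SE 0.22, adjusted p = 0.0069) and rose with MYDGF (log2 fold change 0.91, SE 0.22, adjusted p = 0.0133). Both calls were lost in DESeq2. LINC00963 (log2 fold change -0.16, SE 0.11, adjusted p = 0.249) and LINC00667 (log2 fold change -0.16, SE 0.39, adjusted p = 0.735) did not pass the threshold with the toxin. LINC00261, LINC00460, LINC00520, LINC00941, LINC00958 and LINC01133 were below the filter, with at most 22 counts over the 3 libraries of a group.

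The genes that end coding transcripts and remove nuclear RNA were listed as a group: cleavage and polyadenylation factors, the exonuclease XRN2, Integrator subunits, and the nuclear exosome with its adaptors. All 42 were tested. With aristolochic acid 16 rose (38.1%, beside 29.7% of all genes tested) and 6 fell (14.3%, beside 29.3%), with a median log2 fold change of 0.17 against -0.01 for all genes tested. With MYDGF against the toxin 3 rose (7.14%) and 8 fell (19.0%), beside 14.7% of all genes tested in each direction (median -0.08 against 0.01), and the 8 became 4 without aristolochic acid 4, 5 without MYDGF 1, 3 without MYDGF 3 and 4 without MYDGF 4. Against untreated cells 11 rose (26.2%, beside 26.8%) and 9 fell (21.4%, beside 24.3%) with MYDGF, and the 11 became 7 without untreated 1. The genes named next were chosen after their values were seen. PCF11, a termination factor, rose from a mean of 75.7 to 134 CPM with the toxin (log2 fold change 0.82, adjusted p = 6.02e-05). ZCCHC8, a subunit of the adaptor that brings nuclear RNA to the exosome, rose from 39.6 to 76.0 CPM (0.94, adjusted p = 3.30e-04), and the exosome ribonuclease DIS3 from 80.7 to 123 CPM (0.60, adjusted p = 9.13e-04). Among those that fell were the cleavage endonuclease CPSF3, from 75.5 to 53.3 CPM (-0.50, adjusted p = 4.67e-04), and ZFC3H1, which links polyadenylated nuclear RNA to the exosome, from 115 to 65.8 CPM (-0.81, adjusted p = 2.94e-05). With MYDGF, CPSF3 (0.36, adjusted p = 0.0091) and ZFC3H1 (0.31, adjusted p = 0.0136) were higher than with the toxin alone, and PCF11 (-0.29, adjusted p = 0.0326) and ZCCHC8 (-0.45, adjusted p = 0.0347) were lower. A link between these genes and the LINC loci was not tested.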

How the data were processed

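RNA from 9 libraries was sequenced, and the authors deposited a single table that gives, per the file headers, unnormalized counts for each gene and its FPKM. The FPKM that the authors deposited follow from the counts, 1 gene length per gene and the library total. The tools named in the submitters' processing notes are HISAT2, SAMtools 1.3.1, CASAVA 1.8 and edgeR, with the mouse build mm10, whereas the IDs of the table are human Ensembl genes and its positions are read here as GRCh38. Not given in the sources used here are the counting tool, the annotation release and the strand setting. In the table, 1115 of the 2221 LINC loci overlap another listed gene and 125 a protein-coding one, so reads of overlapping and antisense genes cannot be told apart.

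Columns were matched to samples by title. The counts were fitted in R 4.3.3 with edgeR 4.0.16 (TMM, filterByExpr with a minimum count of 10 and a minimum total of 15, 1 factor of 3 groups, quasi-likelihood test, 6 residual degrees of freedom) over the whole table, with Benjamini-Hochberg adjustment over 18267 genes and a threshold of 0.05. Sums over loci use every locus, without a filter, and were compared with exact two-sided permutation tests in SciPy 1.17.1. Strand came from GENCODE 29; distances run between the gene spans of the table. DESeq2 1.42.0, other scalings and filters, fits without a single library and other class limits were tried as alternatives. Folds against 0 counts use 3 counts in the whole group as the floor, and ratios with 1 to 3 counts carry exact 95% intervals; both cover counting error only. Within a group the chi-square statistic per gene between libraries was 9.72 or more, so none counted as a repeat of another.

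Members and lists were chosen with earlier results of these data known. Named loci were the 10 with the highest untreated FPKM, the 10 largest rises and 6 largest falls that passed the threshold without overlap in each of the first 2 comparisons, the 6 that moved back most, 16 fixed loci, and the 4 largest rises without an active gene within 100 kb.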

Additional observations from a re-analysis of the deposited data

How the results depend on the processing

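Without the filter on low counts, 198 LINC loci rose with aristolochic acid, 12 rose with MYDGF against the toxin, 9 fell and then rose, and 4 genes of the RNA 3′ end list fell with MYDGF. Fitted on the 2 groups compared alone, the last 3 counts were 13, 8 and 4. With 1 library left out, the loci that rose with MYDGF numbered 9 to 16, those that fell 21 to 75, those that rose and then fell 19 to 73, and those that fell and then rose 7 to 12, while 3 to 10 listed genes fell with MYDGF and 7 to 13 were above untreated. The other counts, and those with another scaling or DESeq2, stayed within 1.5 times the reported ones. Where a fit leaves 2 libraries in a group, the spread is that of all groups.

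The replicate numbers could be used as a replicate block, but the groups share too few numbers to pair the samples: aristolochic acid and untreated share 1, and the deviations of same-numbered libraries correlated by -0.17 to 0.02. With this block 60 LINC loci rose and 19 fell with the toxin, 52 and 19 against untreated with MYDGF, and 0 and 0 with MYDGF against the toxin (17 and 30 at an unadjusted p under 0.05, and 14 and 50 in DESeq2 without the block), so that 0 moved back either way. Of the listed genes 5 rose and 2 fell with the toxin, 0 and 0 with MYDGF, and 4 and 5 against untreated.

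The log2 ratios of sums, toxin over untreated, moved without the locus with the most counts to 0.087 (overlapping), 0.38 (within 10 kb), 0.53 (50 to 100 kb, and -0.25 for MYDGF over toxin), 0.44 (5′ end, same strand, and -0.14) and -0.46 (5′ end, opposite strand). Limited to 10 kb they were -0.65 (3′ end, opposite strand, and 0.19), 0.72 and -0.32 for the 5′ classes. At 1 CPM or more they were 0.84 behind a 3′ end, -0.086 and -0.34, and with any active gene upstream on the strand 0.84. With classes by the mean of 9 libraries they were 1.49 under 0.1 CPM and 0.36 at 1 CPM or more. Among single loci 137 calls were lost, 12 gained and 0 reversed. Alternatives for upstream genes, 1 CPM and side classes without the top locus were chosen after seeing the data. Loci at a few counts per library limit what could be called.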
